A study of Mus musculus with 4 samples.

Results

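Mitochondrial ribosomal protein genes were followed in cultured melanocytes, which make skin pigment, comparing wild-type mice with mice that lack the aryl hydrocarbon receptor (AhR). Members were the genes whose symbol in the platform annotation is Mrpl or Mrps followed by a number, with at most a letter after it. Where a gene had several probe sets, the probe set with the highest mean signal over the 4 arrays stood for it. This gave 74 genes of 12393 measured, 47 named Mrpl and 27 named Mrps, from 127 probe sets. All 74 lay above the filter on low signal, so none was left out of the test.

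The wild-type group held cells of 2 female C57BL/6 mice. The AhR knockout group held cells of 2 female mice of the AhRtm1Bra strain, in which exon 2 of the receptor gene is deleted. No ages are given in the sources used here. Both groups were prepared from tail epidermis and kept for 6 to 8 weeks in serum-free medium that favours melanocytes, with passages at confluence, so what was profiled is a selected culture and not sorted cells. Each array carried amplified, biotin-labelled RNA of an individual mouse, and n is 2 in each group. AhR is a transcription factor activated by ligands such as dioxins, and the comparison asks how its absence goes with transcript levels in these cells.

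The mitochondrial ribosome makes the few proteins that mitochondrial DNA encodes, all of them parts of the respiratory chain and the ATP synthase. Its RNAs come from mitochondrial DNA, but its proteins are encoded in the nucleus, made in the cytosol and imported. The large subunit joins amino acids and holds the exit tunnel, while the small subunit reads the messenger. Many of its proteins descend from bacterial ribosomal proteins and keep their numbers, and proteins found only in mitochondria carry the higher numbers.

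The targeted gene and known targets of the receptor were read first. Ahr had signals of 825.5 and 874.1 in wild type against 240.6 and 843.3 in knockout, so AhR knockout 2 read like the wild-type arrays, and whether that probe set touches the deleted exon was not analysed here. Cyp1b1, an enzyme gene that AhR activates, fell by 5.27 on the log2 scale with limma adjusted p = 4.548e-04. Ahrr, the AhR repressor and another target, fell by 2.47 with limma adjusted p = 0.022, and both were low in both knockout arrays. AhR knockout 2 also stood apart in RNA quality. The ratio of 3' to 5' control signal for Gapdh was 2.13 and 2.85 in wild type, 1.98 in the first knockout array and 11.9 in the second. For actin the ratio was 7.89, 8.71, 7.0 and 28.0 in that order. Melanocyte markers were bright in all arrays, with summed signals of 53570 to 65260 in wild type and 73760 to 101000 in knockout over 7 of 8 listed genes, of which 5 were higher and 2 lower. The lower ones were Kit, a growth factor receptor, with 1235 and 899.8 in wild type against 558.3 and 272.8 in knockout, and Mitf, the master regulator of the lineage, with a difference of -0.41. Endothelial markers summed to 12910 and 15970 in wild type against 6161 and 1815 in knockout, and all 6 were lower. Leukocyte markers (5 genes) summed to 1573 and 1544 against 3636 and 3150, with 3 of 5 higher, and fibroblast markers (5 genes) to 554.7 and 711.7 against 299.1 and 244.1, with 3 of 5 lower. Most of the leukocyte sum in knockout was Lyz2, with 668.9 and 880.9 in wild type against 2628 and 2776. The lower leukocyte markers were Cd68 and Ptprc. Keratinocyte markers (5 genes) summed to 188.4 and 213.1 in wild type, 1385 in AhR knockout 1 and 288.3 in AhR knockout 2. In bulk samples more cells of a type and more RNA per cell cannot be told apart, and the part of cell makeup in the member results was not tested.

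The genes of this family are scattered over the genome, so the bases before their starts were read from RefSeq promoter windows of build GRCm38.p6, which held 65 of the 74 members in 71 windows of 300 bases. Printed here are stretches upstream of the start for members that carry the results below, 150 bases each except where 2 members share the space between their starts. Matches to searched motifs are in capitals.
Mrpl58 (chr11:115403602-115403751, + strand, ETS motif): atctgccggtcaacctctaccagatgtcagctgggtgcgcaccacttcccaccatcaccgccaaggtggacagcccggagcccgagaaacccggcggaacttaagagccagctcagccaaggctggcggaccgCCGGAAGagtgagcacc
Mrpl44 (chr1:79775868-79776017, + strand, NRF1 motif): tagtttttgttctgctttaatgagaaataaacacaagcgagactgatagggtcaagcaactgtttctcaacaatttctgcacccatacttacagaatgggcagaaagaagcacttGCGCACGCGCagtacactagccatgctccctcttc
Mrpl22 (chr11:58171514-58171663, + strand, ETS motif): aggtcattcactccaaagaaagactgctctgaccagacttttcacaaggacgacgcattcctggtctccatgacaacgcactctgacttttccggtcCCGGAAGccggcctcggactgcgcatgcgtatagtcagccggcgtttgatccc
Mrpl9 (chr3:94443186-94443335, + strand, NRF1 motif): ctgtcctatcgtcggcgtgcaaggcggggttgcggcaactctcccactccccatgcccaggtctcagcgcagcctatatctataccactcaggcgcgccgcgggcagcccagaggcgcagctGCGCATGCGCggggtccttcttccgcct
Mrpl18 (chr17:12916092-12916241, - strand, AhR response element): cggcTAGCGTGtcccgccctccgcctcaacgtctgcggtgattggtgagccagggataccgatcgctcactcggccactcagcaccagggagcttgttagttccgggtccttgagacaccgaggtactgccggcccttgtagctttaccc
Mrps11 and Mrpl46, the 41 bases between their starts on the Mrps11 strand (chr7:78783090-78783130, no match): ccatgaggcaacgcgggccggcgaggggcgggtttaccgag

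Matches were sought on both strands. The ETS motif, CCGGAAG, is bound by factors such as GABP that act on nuclear genes for mitochondria. It was found in 24 of 65 members, or 36.9%, against 16.4% of 9882 measured genes with a window. The NRF1 motif, GCGCA and GCGC with any base between them, bound by nuclear respiratory factor 1, was found in 12 members, or 18.5%, against 9.36%. The YY1 motif, AAGATGGCG, was found in 7 members, or 10.8%, against 2.82%, and the motif of THAP11 and ZNF143, ACTACA and TCCC with any 2 bases between them, in 5, or 7.69%, against 3.73%. The AhR response element, TNGCGTG, was found in 5 members, or 7.69%, against 8.40%, and in Mrps24 a match overlapped a YY1 match. The 5 were Mrpl9, Mrpl18, Mrps12, Mrps18a and Mrps24. A search for TCAAGGTCA, an estrogen-related receptor motif, gave 0 members against 0.344% of genes, and TATAAA on the gene's own strand gave 4, or 6.15%, against 7.90%. These matches describe letters in the window and not binding. All members lay above the filter on low signal, while the measured genes include those below it, so these shares are not matched for signal. The median log2 difference between genotypes was 0.50 in members with an ETS match and 0.42 in those without, and 0.34 with an NRF1 match against 0.50 without.

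Most of these genes read higher in the AhR knockout cells, by small amounts, and none passed the test. Signal was converted to log2(signal + 16), and every difference is AhR knockout minus wild type on that scale, so differences of dim genes are understated. Of the 74 members, 62 were higher and 12 lower, where 50.3% of the 7435 tested genes were higher. The median difference was 0.44, or 1.36-fold, with quartiles of 0.18 and 0.69, against a median of 0.0055 over all tested genes. Differences ran from -0.67 for Mrpl18 to 1.12 for Mrpl41. The limma model fitted over all tested genes, with Benjamini-Hochberg adjustment, called 0 of 74 members at an adjusted p under 0.05, where it called 0.955% of tested genes, and the members' adjusted p lay between 0.148 and 0.986. At an unadjusted p under 0.05, 9 members were higher, where 7.68% of tested genes were, and 0 were lower, where 12.9% were. The SE of a member's difference was 0.37 at the median, so a difference of the size seen for most members could not be told from the spread between these arrays gene by gene.

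Both knockout arrays lay above both wild-type arrays for 45 members, or 60.8%, where 28.7% of tested genes did so. They lay below both for 1 member, Mrpl18, where 26.7% of tested genes did. A permutation of 2 against 2 arrays cannot reach a p below 0.333 for any gene, so these counts describe the arrays. The members are also not independent of each other, since all were read from the same 4 RNAs. Each knockout array showed the shift, but both were measured from the same wild-type mean, so the readings are not independent. AhR knockout 1 had 65 members higher and a median difference of 0.47. Of the 7435 tested genes, 4039 were higher in that array, with a median of 0.079. AhR knockout 2 had 59 members higher and a median of 0.40, where 3616 tested genes were higher with a median of -0.029. Both knockout arrays were above the wild-type mean for 54 members, where 37.1% of tested genes were. The wild-type arrays differed too: 51 of the 74 members read higher in wild type 1 than in wild type 2, with a median difference of -0.18 for wild type 2 minus wild type 1. The median without AhR knockout 2, the array with the high control ratios, was 0.47, and 61 members then had the remaining knockout array above both wild-type arrays, where 46.6% of tested genes did. A lone array separates more easily than a pair. Without wild type 2, the median difference between genotypes was 0.36, and without wild type 1 it was 0.49.

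**Figure D1:**
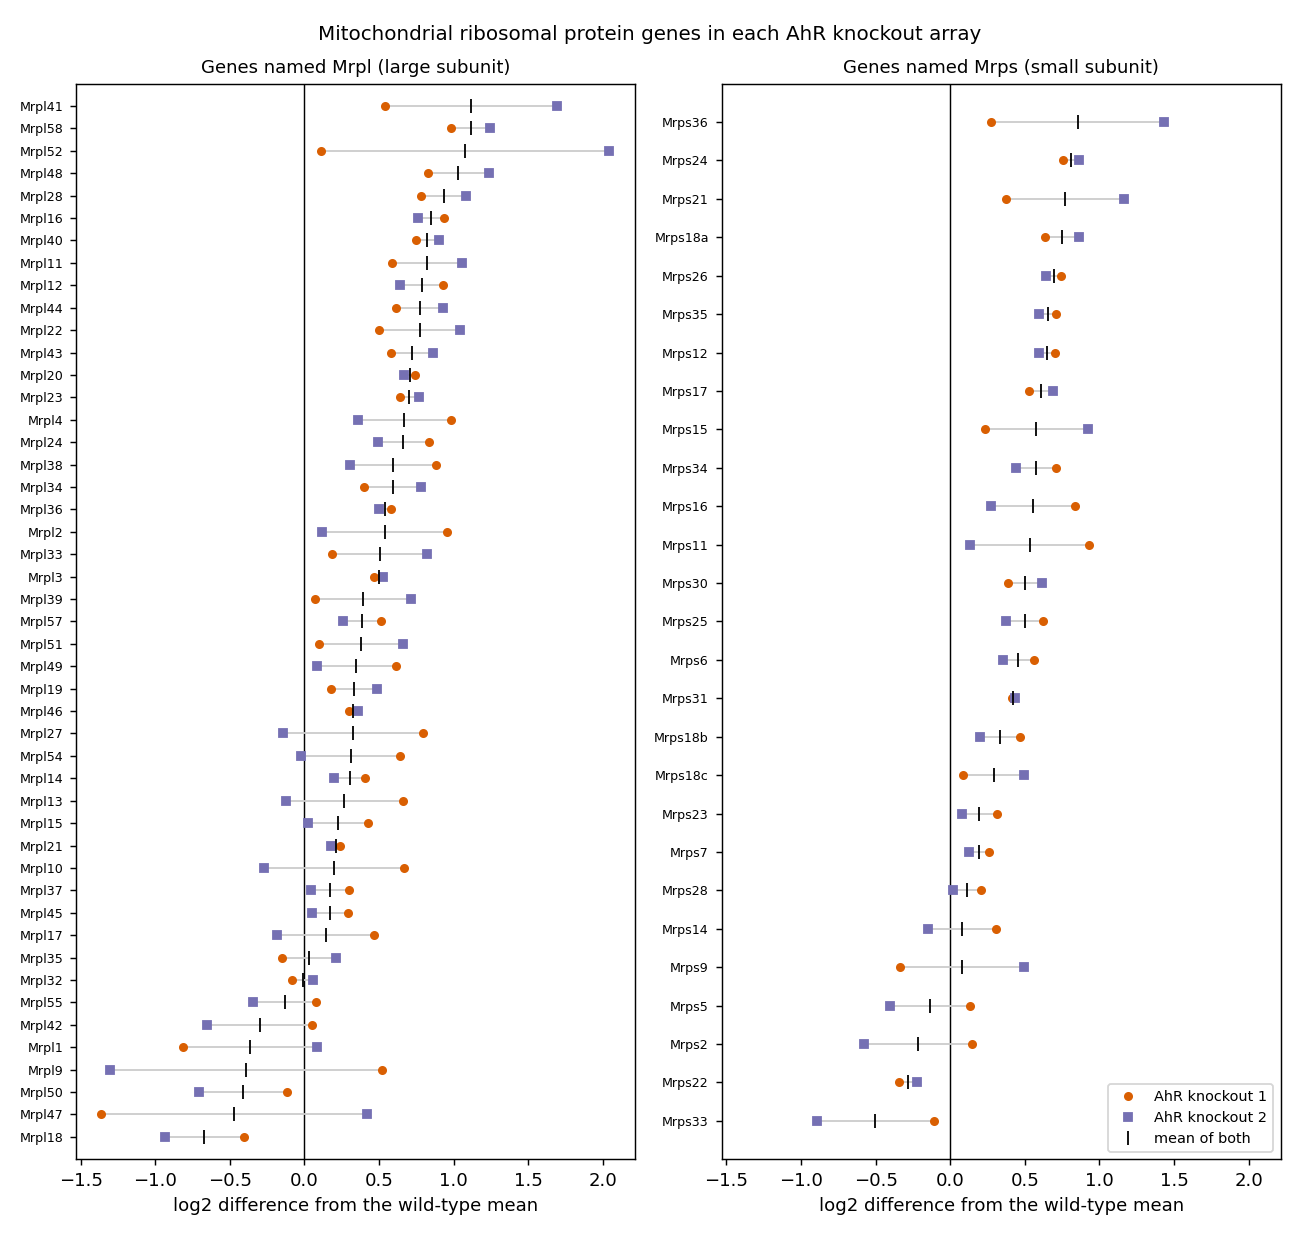
Log2 difference of each AhR knockout array from the mean of the 2 wild-type arrays (x axis, log2 units) for 47 Mrpl genes (left) and 27 Mrps genes (right). Circles are AhR knockout 1, squares AhR knockout 2 and ticks their mean; 54 of 74 genes have both points right of the zero line and 4 have both left of it.

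The shift was larger among bright members. Of the 25 brightest, with mean signals from 1139 to 6137, 25 were higher with a median difference of 0.66. These counts rest on the chosen probe set, also for Mrpl15, whose other probe sets above the filter were lower. Of the 24 in the middle, 21 were higher with a median of 0.50, and of the 25 dimmest, from 137.7 to 551.4, 16 were higher with a median of 0.19. All tested genes within the same signal ranges had medians of 0.024, -0.12 and -0.015 from the brightest to the dimmest range. The brightest member was Mrpl39, with 5365 and 5103 in wild type against 5485 and 8594 in knockout, and AhR knockout 2 stands above the other arrays there. The dimmest was Mrpl37, with 133.2 and 123.2 against 161.6 and 132.8, values that overlap between the groups. Mrpl51, another bright member, had 3438 and 3400 against 3657 and 5405, a difference of 0.38 ± 0.33.

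Quantile normalization, which forces all arrays to the same distribution of signal, left the members higher. It gave 63 of 74 members higher, where 53.7% of tested genes were, and a median difference of 0.58 against 0.064 over all tested genes. Groups that did not overlap, with the knockout higher, were found for 53 members, or 71.6%, where 32.2% of tested genes had them, and 44 of these 53 were among the 45 found without it. The knockout was lower without overlap for 1 member, where 23.8% of tested genes had this. Again 0 members passed, where 0.35% of tested genes did, and the smallest adjusted p was 0.149. At an unadjusted p under 0.05, 13 members were higher, where 9.44% of tested genes were, and 0 were lower, where 11.1% were.

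Among genes named Mrpl, which leave out Mrps18a and Mrps30 of the large subunit, 39 of 47 were higher, with a median difference of 0.39. Of the 47, 8 were higher at an unadjusted limma p under 0.05, where 7.68% of tested genes were. Those numbered in the bacterial range, up to 36, had 23 of 27 higher with a median of 0.50. Those numbered 37 and above, mostly found only in mitochondria, had 16 of 20 higher with a median of 0.38. Numbers follow the names and not homology in every case, since Mrpl47 and Mrps24 carry high numbers but have bacterial relatives.

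Mrpl58, a release factor-like enzyme built into the large subunit that frees stalled peptides, had the smallest p. It had wild-type signals of 1202 and 794.7 and knockout signals of 1947 and 2340. Both knockout arrays were above both wild-type arrays, by log2 1.11 ± 0.37 (SE), with limma adjusted p = 0.148. Mrpl41, a mitochondria-specific protein that is also linked to cell death, read 1405 and 1475 against 2104 and 4681. Its difference was 1.12 ± 0.42, with adjusted p = 0.185, and AhR knockout 2 was far above AhR knockout 1. Mrpl28, the relative of bacterial L28, read 991.2 and 816.6 against 1558 and 1928, a difference of 0.93 ± 0.36 with adjusted p = 0.191. Mrpl52 gave the widest gap between the knockout arrays of any member that was higher, with 1129 and 1245 in wild type against 1281 and 4936 in knockout. Its difference of 1.08 ± 0.55, adjusted p = 0.300, came almost wholly from AhR knockout 2.

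The central protuberance, the crown of the large subunit that contacts the transfer RNAs and the small subunit, was represented by Mrpl38, Mrpl40, Mrpl46, Mrpl48 and, despite its name, Mrps30. Mrpl48 had wild-type signals of 663.5 and 460.2 and knockout signals of 994.7 and 1323, a difference of 1.03 ± 0.38 with limma adjusted p = 0.180. Mrpl40 read 437.3 and 352.4 against 670.1 and 747.6, a difference of 0.82 ± 0.36 with adjusted p = 0.234. The other three differed by less. Mrpl38 read 206.5 and 229.3 against 414.9 and 272.4. Mrpl46 read 549.9 and 575.6 against 694.9 and 725.3. Mrps30 read 565.9 and 478.4 against 685.2 and 805.4. In each of these 5 genes, named for their role and not a complete list of the structure, both knockout arrays were above both wild-type arrays, where 28.7% of tested genes had this. Mrpl18, whose relatives bind RNA of the same structure, went the other way and is given with the lower members.

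The stalk recruits translation factors, and its proteins Mrpl10, Mrpl11 and Mrpl12 did not read alike. Mrpl11, at the stalk's base, had wild-type signals of 1502 and 1734 and knockout signals of 2432 and 3380, a difference of 0.82 ± 0.35 with limma adjusted p = 0.227. Mrpl12, the stalk tip protein, which also binds the mitochondrial RNA polymerase, read 1526 and 1099 against 2485 and 2025, a difference of 0.79 ± 0.36 with adjusted p = 0.254. Mrpl10, which anchors Mrpl12, read 837.7 and 663.1 against 1196 and 616.4. The groups overlapped for Mrpl10, since AhR knockout 2 was the lowest array, and its difference was 0.20 ± 0.42.

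Mrpl22, Mrpl23 and Mrpl24 lie around the exit tunnel, where new chains leave toward the inner membrane. Mrpl47, also at its exit, was lower and is described with the discordant arrays. Mrpl22 had wild-type signals of 942.2 and 987.3 and knockout signals of 1371 and 2006, a difference of 0.77 ± 0.37 with limma adjusted p = 0.269. Mrpl23 read 988.7 and 747.2 against 1347 and 1474, and Mrpl24 read 1925 and 1113 against 2625 and 2064, with both knockout arrays on top in each. Mrpl45, which ties the ribosome to the membrane, read 753.8 and 692.8 against 889.7 and 750.1, with overlapping groups. Mrpl44, which has a ribonuclease-like fold, was the second brightest member, with 4233 and 2796 against 5273 and 6574. Its difference was 0.77 ± 0.33 with adjusted p = 0.231, and its other probe sets gave 0.82 and 0.84.

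Near the catalytic centre, Mrpl16 had wild-type signals of 1139 and 788.3 and knockout signals of 1824 and 1620, a difference of 0.85 ± 0.37 with limma adjusted p = 0.233. Mrpl3 read 741.2 and 761.5 against 1046 and 1087, arrays that lay close within each group, and its difference of 0.50 ± 0.35 had adjusted p = 0.443. Mrpl2 read 1184 and 824.7 against 1936 and 1076, with overlap between wild type 1 and AhR knockout 2. Mrpl27 read 1411 and 1317 against 2375 and 1232, so that AhR knockout 1 was highest and AhR knockout 2 lowest.

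**Figure D2:**
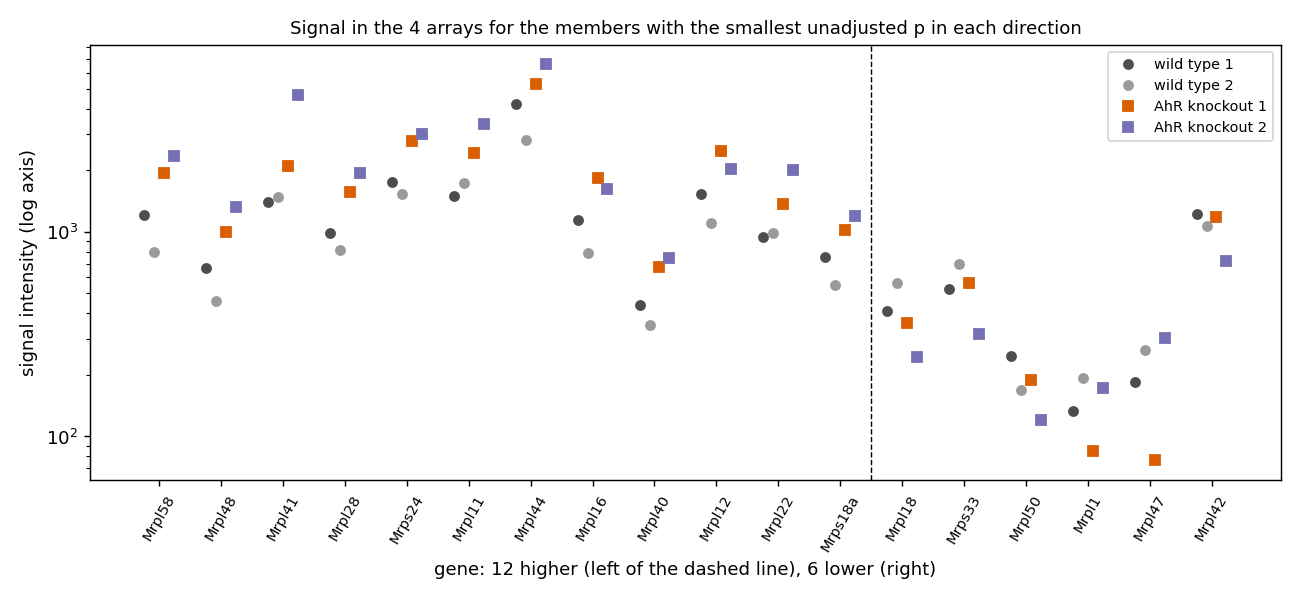
Signal intensity on a log axis in each of the 4 arrays (2 wild type, circles; 2 AhR knockout, squares) for the 12 higher and 6 lower members with the smallest unadjusted p. All 12 on the left have both squares above both circles, and of the 6 on the right Mrpl18 alone has both squares below both circles.

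Among genes named for the small subunit, 23 of 27 were higher, with a median difference of 0.50. The difference had an unadjusted p under 0.05 for Mrps24 alone. Mrps24, the relative of bacterial S3 at the messenger entrance, had wild-type signals of 1754 and 1531 and knockout signals of 2774 and 2994, a difference of 0.81 ± 0.33 with limma adjusted p = 0.215. Members numbered up to 21 had 13 of 15 higher with a median of 0.46, and those numbered 22 and above had 10 of 12 higher with a median of 0.50.

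Mrps12, the protein of the decoding centre, had wild-type signals of 1060 and 847.5 and knockout signals of 1554 and 1443, a difference of 0.65 ± 0.36 with limma adjusted p = 0.325. Mrps16, whose loss causes a human mitochondrial disease, read 777.2 and 576.6 against 1207 and 814.4. Mrps34, needed for a stable small subunit, read 1892 and 1440 against 2702 and 2242. In both genes the knockout arrays were above the wild-type arrays. Mrps35 read 280.2 and 218.2 against 415.4 and 382.2, and Mrps25 read 945.9 and 691.3 against 1254 and 1055. Mrps6 read 564.6 and 457.4 against 758.5 and 653.3, again with no overlap. Mrps7, Mrps14 and Mrps23 were higher by 0.19, 0.080 and 0.20 with overlapping groups. The second probe set gave 0.61 for Mrps14 and -0.28 for Mrps23. Mrps28 was higher by 0.11, a difference smaller than its SE of 0.35.

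The 3 paralogs Mrps18a, Mrps18b and Mrps18c descend from the same bacterial protein, and Mrps18a sits in the large subunit. Mrps18a had wild-type signals of 757.3 and 551.7 and knockout signals of 1015 and 1191, a difference of 0.75 ± 0.37 with limma adjusted p = 0.284. Mrps18b read 808.6 and 638.6 against 999.4 and 827.7, a difference of 0.33 ± 0.37. Mrps18c read 506.3 and 588.5 against 581.6 and 776.5, a difference of 0.29 ± 0.37, with overlap between wild type 2 and AhR knockout 1. The differences among the paralogs were not tested. Mrps36, which carries the family name but is assigned to the 2-oxoglutarate dehydrogenase complex, read 294.9 and 356.9 against 396.1 and 904.7. Its difference was 0.86 ± 0.44 with adjusted p = 0.302.

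Of the 12 lower members, 8 were named Mrpl and 4 Mrps, and 9 were among the 25 dimmest members. Mrpl18, of a family that binds RNA of the central protuberance in other ribosomes, had wild-type signals of 409.6 and 560.4 and knockout signals of 357.4 and 243.6. Both knockout arrays were lowest, with a difference of -0.67 ± 0.38 and limma adjusted p = 0.343. Mrps33 read 523.3 and 700.0 against 560.8 and 318.2, Mrpl50 read 248.2 and 169.5 against 188.5 and 119.9, and Mrpl42 read 1225 and 1068 against 1186 and 722.7, each with overlap. Mrps22, in which mutations cause human mitochondrial disease, read 240.3 and 512.5 against 274.4 and 298.8, where both knockout arrays fell between the wild-type arrays. Mrps2 and Mrps5, relatives of bacterial proteins, differed by -0.21 and -0.14, with AhR knockout 2 alone below the wild-type arrays.

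For 5 members the knockout arrays differed from each other by more than a log2 unit. Mrpl9 had knockout signals of 898.3 and 242.8, against 720.9 and 535.9 in wild type. Mrpl47, the relative of bacterial L29 at the tunnel exit, did the reverse, with 76.7 and 302.3 against 185.5 and 265.2. Mrpl41, Mrpl52 and Mrps36 were those with AhR knockout 2 far above AhR knockout 1. When AhR knockout 2 alone stood for the knockout, limma called 8 members higher, where 7.16% of tested genes were called higher, and Mrpl9 lower, where 11.1% were. The 8 were Mrpl11, Mrpl41, Mrpl44, Mrpl48, Mrpl52, Mrpl58, Mrps21 and Mrps36. When AhR knockout 1 alone did, it called Mrpl47 lower, where 10.8% of tested genes were, and no other member. The share of tested genes called higher with AhR knockout 1 alone is not given here, so calls in these fits are not compared. In both fits the spread comes from the wild-type arrays alone, and the lone knockout array is assumed to vary as they do.

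Probe sets of the same gene parted in AhR knockout 2. Of the 74 members, 33 had more than 1 probe set, and 23 had a second one above the signal filter. In AhR knockout 1 the brightest and the second probe set differed from the wild-type mean by a median of 0.43 and 0.37, and 20 of the 23 second probe sets were higher. In AhR knockout 2 the medians were 0.52 and 0.26, and 14 of the 23 second probe sets were higher, against 20 of the brightest. The brightest was chosen by a mean that includes AhR knockout 2, which favours high values there. In Mrpl39 the brightest probe set read 8594 in AhR knockout 2 and the second read 515.7, against 811.1 and 786.0 for the second in wild type. In Mrpl48 the second probe set gave 0.20 in AhR knockout 2 where the brightest gave 1.23, and in Mrps24 these were -0.070 and 0.86. For Mrpl1 and Mrpl15, probe sets differed in sign by 0.5 or more on each side. Mrpl1 had wild-type signals of 133.8 and 192.8 and knockout signals of 84.7 and 171.6, which overlap. Its 3 probe sets gave -0.36, -0.61 and 0.62, the last at a mean signal of 24.7, below the filter. The 7 probe sets of Mrpl15 ran from -0.73 to 0.54, the highest at a mean signal of 50.2, also below the filter. Those of Mrpl15 above the filter ran from -0.73 to 0.22, so they give it no single direction. The counts of members take it as higher, by its chosen probe set alone. Over all 127 probe sets, those below the filter included, 100 were higher and 27 lower. Where these probe sets lie in their transcripts was not analysed here, and the part of RNA quality in the member results was not tested.

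**Figure D3:**
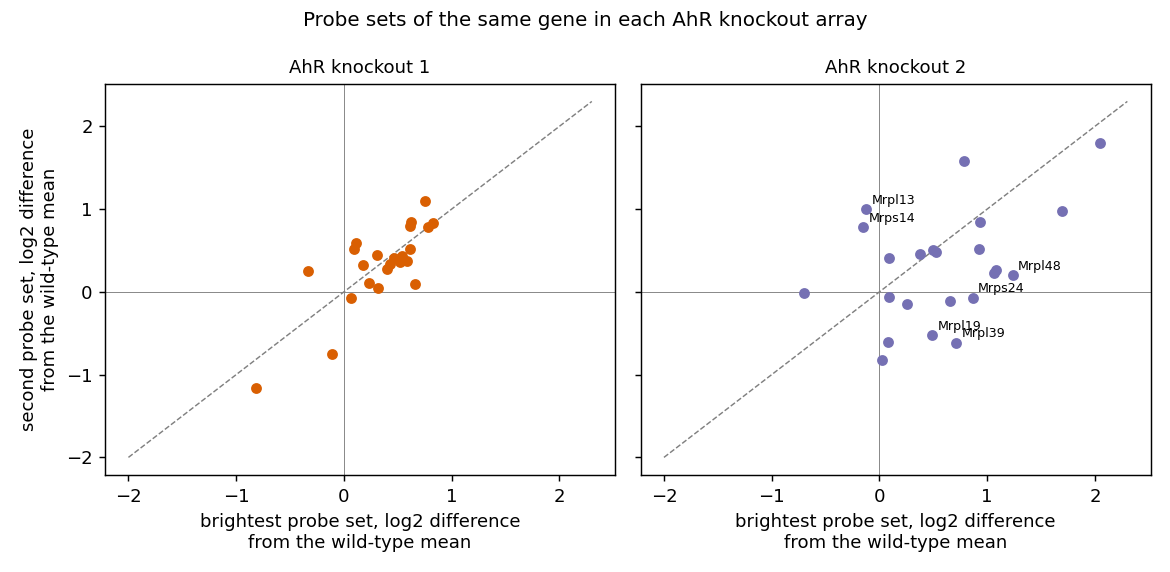
Log2 difference from the wild-type mean for the brightest (x axis) and the second probe set (y axis) of 23 members, in AhR knockout 1 (left) and AhR knockout 2 (right). Points lie nearer the dashed line of equality on the left than on the right. The median signed gap, brightest minus second, was 0.093 on the left and 0.40 on the right. Gaps of opposite sign offset each other in this median, so it does not measure scatter. Genes with a gap over 0.9 either way are named.

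Some chosen probe sets are marked by the manufacturer as able to bind more than a single transcript. Of the 74, 4 end in x_at, for Mrpl11, Mrpl15, Mrpl28 and Mrpl48, and 5 end in s_at, for Mrpl19, Mrpl37, Mrpl38, Mrps12 and Mrps24. The brightest probe set without either mark gave 0.30 for Mrpl11, 0.94 for Mrpl28, 0.51 for Mrpl48 and 0.64 for Mrpl38. It gave -0.12 for Mrpl15 and -0.099 for Mrpl19, against 0.22 and 0.33 from their chosen probe sets. The unmarked probe set of Mrpl38 had a mean signal of 38.8, below the filter on low signal, so its value says little. Mrpl37, Mrps12 and Mrps24 had none. Shared binding was not analysed here, and another 3 probe sets that list a member beside another gene were left out.

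Position linked some members to each other and to neighbours. Of the 65 members with a promoter window, 24 had another gene starting in the opposite direction within 1000 bases, or 36.9%, against 16.6% of measured genes with a window. The measured genes again include those below the signal filter. Mrpl46 and Mrps11 start 42 bases apart, and they differed by 0.33 and 0.53. Mrpl18, the lower member, starts 238 bases from Tcp1, a subunit of the cytosolic chaperonin. Tcp1 had wild-type signals of 3930 and 4760 and knockout signals of 2908 and 3180, a difference of -0.51 with limma adjusted p = 0.381, so both genes of that pair were lower with no overlap. Mrps12 starts 147 bases from Sars2, the mitochondrial seryl-tRNA synthetase, which read 67.5 and 52.8 against 173.2 and 76.4. Mrpl47 and its neighbour Ndufb5, a subunit of respiratory complex I, went apart, with -0.47 and 0.47. Of 9 tested neighbours outside the family, 8 were higher, 7 of them with no overlap, and 0 were called, where 50.3%, 28.7% and 0.955% of tested genes were.

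Genes that assemble the mitochondrial ribosome were mostly higher. Of 16 measured, 13 were higher and 3 lower, with a median difference of 0.45, where 50.3% of tested genes were higher. Of these, 15 were tested with 0 called, where 0.955% of tested genes were. At an unadjusted limma p under 0.05, 4 were higher, where 7.68% of tested genes were. The lower ones were Mterf3, Noa1 and Nsun4, with differences of -0.54, -0.39 and -0.20, and the groups did not overlap for Noa1 and Nsun4. Tfb1m, a methyltransferase for the small subunit's RNA, had wild-type signals of 150.4 and 163.1 and knockout signals of 266.9 and 308.9, a difference of 0.81 ± 0.35 with limma adjusted p = 0.231. Mterf4, which brings a methyltransferase to the ribosome, differed by 0.84, Mtg2, a GTPase of large-subunit assembly, by 0.86 and Mettl17, a small-subunit factor, by 0.80. Proteins of the ribosome with other names were mixed: Chchd1 differed by 0.51, Gadd45gip1 by 0.26, Dap3 by 0.20 and Ptcd3 by -0.42.

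Translation factors were mixed. Of 8 measured, 3 were higher and 5 lower, with a median of -0.24, and 0 were called. Mtif2, the initiation factor, had wild-type signals of 324.9 and 433.0 and knockout signals of 121.9 and 257.3, a difference of -1.01 ± 0.42 with limma adjusted p = 0.219. Lrpprc, which stabilises mitochondrial messengers, read 341.7 and 292.0 against 169.4 and 147.0, a difference of -0.93 ± 0.35 with adjusted p = 0.184. Gfm1, an elongation factor, differed by -0.54, and Tufm, another, read 333.6 and 136.7 against 380.3 and 130.6. Oxa1l, which inserts new chains into the membrane, differed by 0.48. Whether this list differs from the ribosomal proteins was not tested.

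Genes that charge transfer RNAs in mitochondria gave 9 of 12 higher, with a median of 0.15, and 0 of 11 tested were called. Gatb, of the enzyme that makes glutaminyl-tRNA, had wild-type signals of 127.3 and 70.1 and knockout signals of 188.4 and 246.6, a difference of 1.06 ± 0.40 with limma adjusted p = 0.181. Rars2 differed by -0.41. Genes that copy and transcribe mitochondrial DNA gave 5 of 9 higher, with a median of 0.018 and 0 called. Polg2, a subunit of the DNA polymerase, differed by 0.88, Polrmt, the RNA polymerase, by 0.52, Tfb2m, its partner, by -0.70 and Tfam, which packages the DNA, by -0.14.

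The cytosolic ribosome and the respiratory chain were also mostly higher, and quantile normalization moved their medians differently. As deposited, the median difference was 0.52 over 41 cytosolic ribosomal protein genes, 41 of them higher. It was 0.57 over 70 oxidative phosphorylation genes, 63 of them higher. Groups did not overlap, with the knockout higher, for 78.05% of the cytosolic and 72.86% of the oxidative phosphorylation genes. That share was 60.8% of members and 28.7% of tested genes. At an unadjusted limma p under 0.05, 10 of 41 and 26 of 68 were higher, against 9 of 74 members and 7.68% of tested genes. After quantile normalization the cytosolic median was 0.25 and that of oxidative phosphorylation 0.51, while the mitochondrial ribosomal median went from 0.44 to 0.58. The shares without overlap were then 53.66%, 67.14% and, for members, 71.62%, against 32.2% of tested genes. Cytosolic ribosomal genes differed from the wild-type mean by a median of 0.29 in the first knockout array and 0.76 in the second, where the mitochondrial ones gave 0.47 and 0.40. None of these lists had a called gene, and the differences between lists were not tested.

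**Figure D4:**
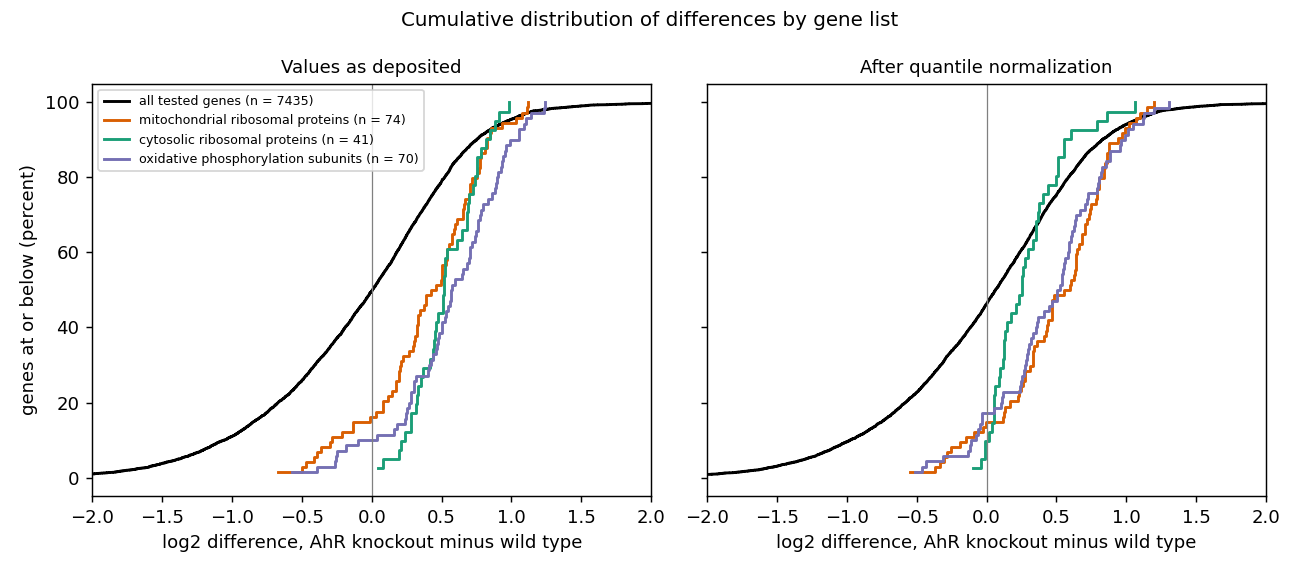
Percent of genes at or below each log2 difference (x axis, AhR knockout minus wild type) for 4 gene lists, as deposited (left) and after quantile normalization (right). The curve of the 74 mitochondrial ribosomal protein genes lies right of the 7435 tested genes over most of its length in both panels, with medians of 0.44 and 0.58.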

How the data were processed

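RNA of 4 cultures was hybridised to 1-colour Affymetrix arrays. Values were deposited as linear signal intensity made with MAS5, per the submitters' processing notes. Its version, background handling and filters were not given in the sources used here. The trimmed mean was 500.2 or 500.3 on each array, so a shift of most transcripts would be scaled away. Of 22690 probe sets, 64 were controls, 20380 had 1 gene symbol, 691 several and 1555 none. Genes were named from those with 1 symbol, and 20351 matched the RefSeq table (GRCm38.p6) by gene ID. The top 60% of 12393 genes by mean signal were tested, which is 7435 with a mean of at least 81.2, as log2(signal + 16).

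Groups were compared with limma 3.58.1 in R 4.3.3, using lmFit and a mean-variance trend in eBayes, adjusted by Benjamini-Hochberg at a threshold of 0.05. On simulated data for these 7435 genes, 16.8% of 2-fold and 91.0% of 4-fold changes were recovered, and 5.16% of calls were false. Replicates are separate mice, and precision is limited by how few arrays there are. The members and lists were chosen with earlier results of these data known. Members were named by smallest p (12 higher, 6 lower), brightness (4 brightest, 3 dimmest), known role, or probe sets of opposite sign, and up to 4 genes of other lists by smallest p or role. Mrpl9, Mrpl13, Mrpl19, Mrpl52, Mrps11, Mrps21, Rars2, Tcp1, Ndufb5, Kit, Mitf, Lyz2, Cd68 and Ptprc were named after their values were seen. So were Mterf3, Noa1 and Nsun4. Alternatives covered normalization, pseudocount, filter, probe set choice, eBayes settings, the title number as a block, the threshold and each array left out. Choosing and filtering by log2 means was added after seeing the data. Figures used matplotlib 3.10.9 in Python 3.11.15.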

Additional observations from a re-analysis of the deposited data

How the results depend on the processing

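The members' median stayed above 0 under every alternative run, while calls moved with single arrays. With 62 members higher as deposited, the alternatives that keep all arrays gave 59 to 63, and leaving out an array in turn gave 59 to 65. The count of higher members with no overlap, 45 as deposited, was 45 to 53 with all arrays and 49 to 61 with 1 left out, where fewer arrays make separation easier. The share of tested genes moved too. It was 28.7% as deposited, 32.2% after quantile normalization, which gave the 53, and 46.6% without AhR knockout 2, which gave the 61. The median difference of 0.44 was 0.58 after quantile normalization and 0.53 with equal array medians, and 0.36 to 0.49 with an array left out. Members called went from 0 to between 0 and 9 with an array left out, and members at an unadjusted p under 0.05 went from 9 to between 0 (without wild type 2) and 19 (without AhR knockout 1).

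The title number as a replicate block called 5 of the 74 members, Mrpl28, Mrpl41, Mrpl48, Mrpl52 and Mrpl58, all higher. It called 1406 of the 7435 tested genes in all, so the share called was smaller among members than among tested genes. At an unadjusted p under 0.05 there were 19 members, and all 1406 called genes lie under that threshold too. The share of tested genes there was not worked out, so the 19 are not read as a result about the members. Arrays of the same number had deviations from the group means that correlated at 0.353 across genes, but with 2 pairs and no label behind them the numbers were not taken as pairs.

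Over all genes, the 71 calls became 26 with quantile normalization, 43 with a pseudocount of 1, 1 without the filter, 20 with the top 40% and 364 at an adjusted p under 0.10, and lay between 20 (without wild type 2) and 1360 (without AhR knockout 1) when an array was left out. When probe sets were averaged per gene, Mrpl15, Mrps5 and Mrps23 changed sign, to -0.038, 0.038 and -0.042.

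Leaving out an array in turn changed the sign of these differences at 1 end of their range: Mrpl1 -0.81 to 0.085, Mrpl10 -0.27 to 0.67, Mrpl27 -0.14 to 0.79, Mrpl42 -0.65 to 0.052, Mrpl47 -1.36 to 0.42, Mrps2 -0.58 to 0.15, Mrps5 -0.40 to 0.13, Mrps7 -0.14 to 0.52, Mrps14 -0.15 to 0.31, Mrps22 -0.81 to 0.24 and Mrps23 -0.0031 to 0.39. Mrpl9 changed sign as well, with -1.30 without AhR knockout 1 and 0.52 without AhR knockout 2. The median of the mitochondrial DNA list ran from -0.034 to 0.010 and that of the transfer RNA list from -0.067 to 0.36. The cause was not tested.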
